A study of Mus musculus with 2 samples.

Results

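The genes described here are 43 mouse genes of the muscle sarcomere and of the myogenic programme, listed by symbol and chosen from 43346 genes counted in central nervous system tissue. The list holds 7 sarcomeric myosin heavy chains, 6 myosin light chains, 2 sarcomeric actins, 2 alpha-actinins, 8 troponins, 2 tropomyosins, 5 giant and thick filament proteins, 5 myogenic transcription factors, and creatine kinase, desmin, 2 acetylcholine receptor subunits and 2 genes of the muscle calcium store. All 43 symbols were found once in the gene tables.

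Central nervous system tissue was taken at embryonic day 14 from mice of the C57BL/6J strain, and the labels name no treatment and no mutant allele. A single group of 2 biological replicates was collected, each a pool of male and female littermates, and the labels list them as separate biosamples under a shared donor identifier. Each replicate gave a stranded paired-end library from poly(A)+ RNA longer than 200 nucleotides and depleted of ribosomal RNA, with ERCC spike-ins. Because the design holds no contrast, the replicates were compared as 2 single libraries, so no p-value was available and the intervals below cover counting error only.

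Striated muscle contracts through the sarcomere, in which myosin thick filaments pull on thin filaments of actin, tropomyosin and troponin that are anchored in Z discs. Most sarcomeric proteins come as families whose members mark developmental stages (embryonic, perinatal, adult) or fibre types (slow, fast, cardiac). In skeletal muscle the bHLH factors Myf5, Myod1, Myog and Myf6 commit precursors and drive these genes, often together with Mef2 proteins, through E-boxes and other short promoter elements. Neurons and glia of the brain and spinal cord do not build sarcomeres, although some members, such as Tpm1 and Mef2c, are known to be transcribed in neural cells.

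Promoter windows of 4 members are shown because they stand for the classes of result below: both sarcomeric actins and muscle creatine kinase, which differed many fold between the replicates, and cardiac troponin I, which hardly differed. The windows run from 250 bases before to 50 bases after the RefSeq start on GRCm38.p6, 5′ to 3′ along the gene: Actc1 on the minus strand of chr2:114052826-114053125, Acta1 on the minus strand of chr8:123894726-123895025, Ckm on the plus strand of chr7:19410844-19411143 and Tnni3 on the minus strand of chr7:4522479-4522778. Capitals mark E-boxes (CANNTG, either strand) and, in the actins, also the CArG box, the site of serum response factor; no E-box overlapped a CArG box.
Actc1: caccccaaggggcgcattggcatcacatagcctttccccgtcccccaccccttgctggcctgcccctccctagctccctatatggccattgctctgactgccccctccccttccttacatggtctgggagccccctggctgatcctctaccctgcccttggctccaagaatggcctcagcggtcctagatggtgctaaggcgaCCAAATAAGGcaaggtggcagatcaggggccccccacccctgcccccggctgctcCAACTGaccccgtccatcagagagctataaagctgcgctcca
Acta1: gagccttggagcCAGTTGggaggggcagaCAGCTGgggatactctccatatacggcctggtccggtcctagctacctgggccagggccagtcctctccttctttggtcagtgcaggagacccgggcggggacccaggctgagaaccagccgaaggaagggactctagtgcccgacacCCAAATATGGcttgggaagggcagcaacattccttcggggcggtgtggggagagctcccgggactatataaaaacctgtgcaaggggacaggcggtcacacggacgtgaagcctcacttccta
Ckm: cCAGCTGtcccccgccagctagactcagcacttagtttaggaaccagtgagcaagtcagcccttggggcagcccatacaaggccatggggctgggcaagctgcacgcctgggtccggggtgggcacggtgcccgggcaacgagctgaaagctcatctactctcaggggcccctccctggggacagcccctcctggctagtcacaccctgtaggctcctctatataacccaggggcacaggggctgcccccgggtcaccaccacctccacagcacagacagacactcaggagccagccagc
Tnni3: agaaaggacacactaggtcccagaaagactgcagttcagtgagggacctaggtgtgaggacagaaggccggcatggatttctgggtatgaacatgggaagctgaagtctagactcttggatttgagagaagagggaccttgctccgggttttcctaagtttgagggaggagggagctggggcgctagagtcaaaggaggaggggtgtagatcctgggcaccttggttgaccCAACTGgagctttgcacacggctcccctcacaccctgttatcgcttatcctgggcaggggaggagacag
The Actc1 window held 1 E-box and 1 CArG box, and that of Acta1 held 2 E-boxes and 1 CArG box. Ckm and Tnni3 held 1 E-box each, so having an E-box in the window did not separate the genes that differed from Tnni3. RefSeq windows were found for 37 of the 43 members, 43 windows in all, some members having several. An E-box occurred in 86.0% of the member windows and in 72.3% of all 32851 promoter windows. The CArG box occurred in 11.6% of the member windows (Acta1, Actc1, Myh4, Myl3, Myl7) and in 1.63% of all windows. The MEF2 site, searched on both strands, was also in 11.6% of the member windows (Casq2, Myh1, Myh4, Myh8, Ttn) against 3.19% of all windows. TATAAA on the gene's strand was in 20.9% of the member windows and in 8.32% of all windows. These matches describe letters in a window and are not measured binding sites.

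The libraries held 102727538 and 138440954 expected counts in replicates 1 and 2, of which the members took 0.125% and 0.0294% of the counts on genes. Of the central nervous system markers, the 12 neuronal and 11 progenitor genes were all above 1 TPM (transcript abundance per length and depth) and all within 2-fold between the replicates. Most genes were also within 2-fold: of 19517 genes with a mean count of at least 10, 7.22% were at least 2-fold higher in replicate 1 and 1.15% at least 2-fold lower. Tubb3, the neuronal beta-tubulin, had 1820 TPM in replicate 1 and 2133 TPM in replicate 2. On the scale used for genes, the median log2 ratio (replicate 1 over replicate 2) over 70 counted ERCC spike-ins was 0.06. The median was -0.02 (range -0.27 to 0.72) for the neuronal genes and -0.35 (range -0.67 to -0.05) for the progenitor genes. All 11 progenitor genes were thus lower in replicate 1. A count of 0 allowed up to 3 counts, or 0.0301 CPM (counts scaled to depth) in replicate 1 and 0.0223 in replicate 2.

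All 43 sarcomere and myogenic genes had reads in both replicates, at levels that differed widely. Their summed level was 1360 TPM in replicate 1 and 223 TPM in replicate 2, and all 43 members had a higher scaled count in replicate 1, some by less than counting error. Over all genes with a mean count of at least 10, the median log2 ratio was -0.00. At 1 TPM or more, 35 of the 43 members were detected in replicate 1, against 36.2% of all genes. In replicate 2, 15 of the 43 were, a share near the 35.2% of all genes, and the 15 passed in both. In replicate 1, 22 members reached 10 TPM and 4 reached 100 TPM (Tpm1, Actc1, Mylpf, Acta1). In replicate 2, 3 members reached 10 TPM (Tpm1, Tpm2, Mef2c), and Tpm1 alone passed 100 TPM. The shares of all genes at 10 and 100 TPM were not counted. In bulk tissue, fewer muscle cells and less muscle RNA per cell cannot be told apart.

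**Figure D1:**
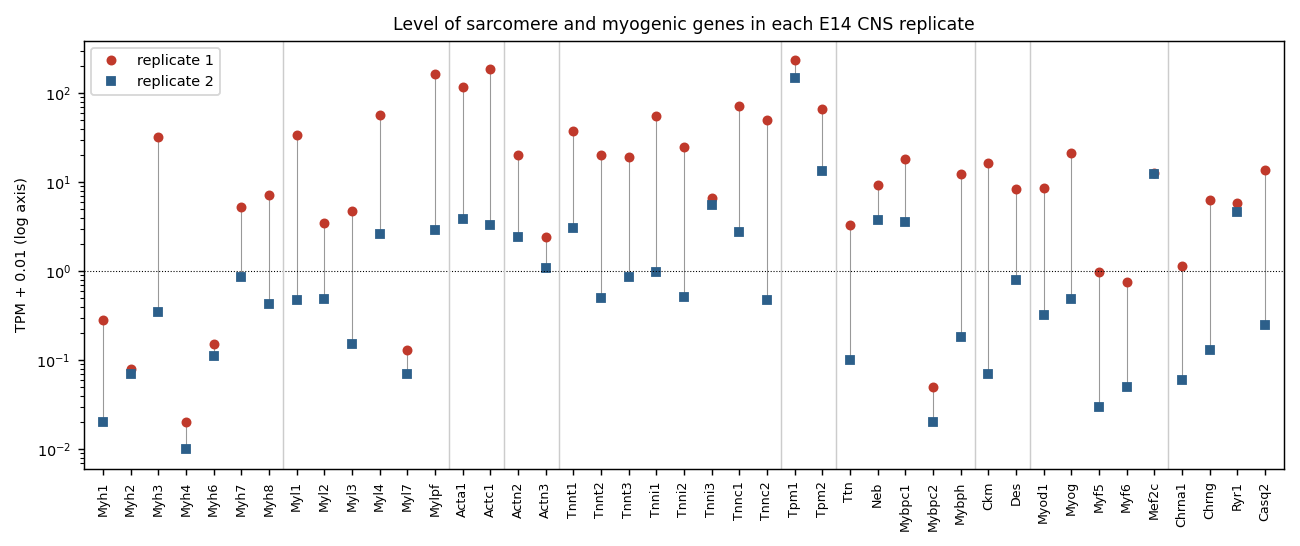
Level of each of the 43 members in replicate 1 (circles) and replicate 2 (squares), as TPM plus 0.01 on a log axis, ordered by role with grey lines between roles; the dotted line marks 1 TPM. Replicate 1 lies above the line for 35 members and replicate 2 for 15, and the symbols of Tpm1, Mef2c, Ryr1 and Tnni3 nearly meet.

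Between the replicates, 36 of the 43 members were at least 2-fold higher in replicate 1, and 34 of the 40 with a mean count of at least 10. Of all 19517 genes with that mean count, 7.22% were. At least 8-fold higher were 29 members, against 1.28% of those genes, and at least 32-fold higher were 15 members, against 0.307%. None was at least 2-fold lower, against 1.15%. The members' median log2 ratio was 4.32 (range 0.05 to 7.88), while that of all such genes was -0.00, with the central 95% between -0.73 and 1.97. Of the 100 largest ratios among all these genes, 21 belonged to members. The interval lay wholly above 2-fold for 33 members, and the same share of all genes was not counted. Under 100 counts in replicate 2 were found for 23 members, and Myh4, Myl7 and Mybpc2 had a mean count below 10. The 7 members within 2-fold were Myh2, Myh6, Myl7, Tnni3, Tpm1, Mef2c and Ryr1. The intervals of Tnni3, Tpm1, Mef2c and Ryr1 also stayed within 2-fold, so those genes stood apart from most of the list. Myh2, Myh6 and Myl7 had low counts and intervals that reached past 2-fold.

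**Figure D2:**
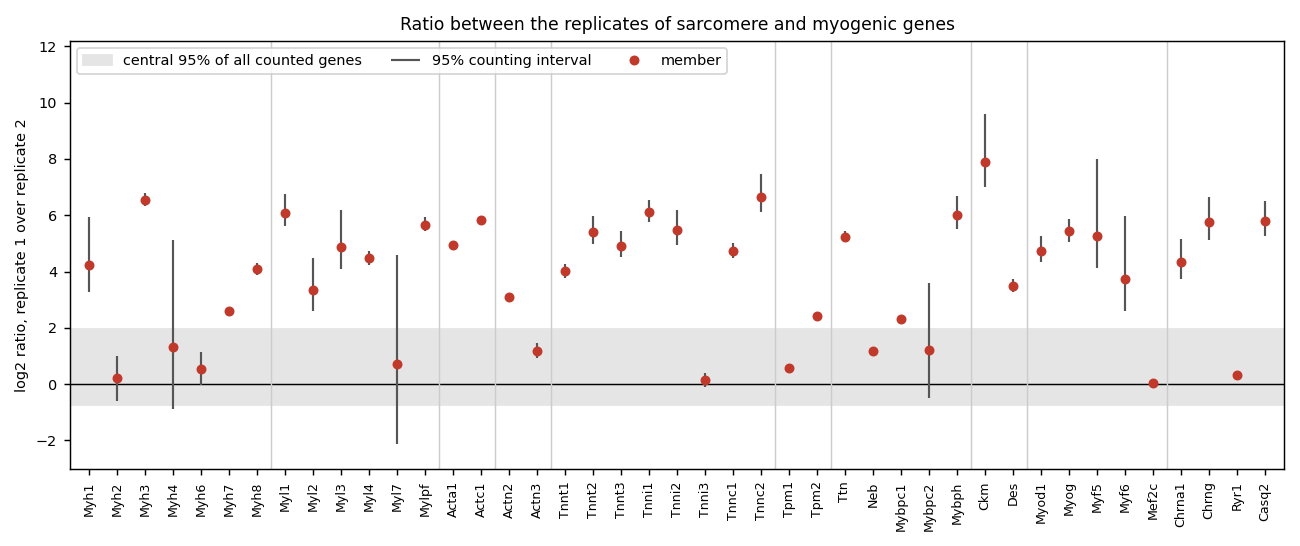
Log2 ratio of scaled expected counts, replicate 1 over replicate 2, for each member (points) with its 95% counting interval (lines); the grey band holds the central 95% of 19517 genes, -0.73 to 1.97. Ckm is highest at 7.88, and Tnni3, Mef2c, Ryr1 and Tpm1 sit within the band with short intervals.

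Among myosin heavy chains, the motors of the thick filament, the embryonic form had the highest TPM in replicate 1 and the slow form in replicate 2. In the deposited mm9 junction table, whose 2 fields no label ties to a replicate, 81.0% of the slow form's reads in the lower field lay at its 3′ end. Embryonic Myh3 had 32.1 TPM in replicate 1 and 0.34 TPM in replicate 2, from 11846 and 168 counts, a log2 ratio of 6.54 (95% interval 6.33 to 6.78). Perinatal Myh8 had 7.25 TPM in replicate 1 and 0.42 TPM in replicate 2, with a log2 ratio of 4.08. Myh7, the slow and ventricular form, had 5.26 TPM in replicate 1 and 0.84 TPM in replicate 2, with a log2 ratio of 2.58. Over whole genes the ratio was thus largest for the embryonic, smaller for the perinatal and smallest for the slow form. Without the last of 5 stretches of splice junctions in the mm9 table, field 1 held 923 reads and field 2 held 75 for Myh7, a scaled log2 ratio of 4.06 (3.72 to 4.42), and 1330 and 103 for Myh8, a scaled log2 ratio of 4.13 (3.84 to 4.44). The order of the perinatal and slow forms therefore did not hold there, whereas Myh3, with 6151 reads in field 1 and 73 in field 2, stayed above both at 6.84 (6.51 to 7.19). In field 2 the 3 genes then had near-equal reads.

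The adult fast forms were scarce in both libraries. Myh1, the fast IIX form, had 99 counts in replicate 1 and 6 in replicate 2, or 0.27 TPM in replicate 1 and 0.01 TPM in replicate 2. Myh2, the fast IIA form, had 27 counts in replicate 1 and 31 in replicate 2, and its interval of -0.59 to 1.01 included no difference. Myh4, the fast IIB form, had 5 counts in replicate 1 and 2 in replicate 2, too few to place it. Atrial Myh6 had 53 counts in replicate 1 and 48 in replicate 2, with an interval of -0.03 to 1.15 around a log2 ratio of 0.55.

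As shares of summed heavy chain TPM, Myh3 made up 71.2% in replicate 1 and 19.2% in replicate 2, or 45.2% ± 36.8 (SD, n = 2). Myh7 made up 11.7% in replicate 1 and 47.5% in replicate 2. Myh8 kept a nearer share, 16.1% in replicate 1 and 23.7% in replicate 2. The adult fast forms together held 0.776% in replicate 1 and 3.95% in replicate 2, and Myh6 held 0.310% in replicate 1 and 5.65% in replicate 2. The total behind these shares was 45.1 TPM in replicate 1 and only 1.77 TPM in replicate 2, so the shares of replicate 2 rest on few reads. Expected counts of all 7 heavy chains were non-whole, and those of the other 36 members were whole, so the split of reads between heavy chains is an estimate. The skeletal genes lie in a cluster on the plus strand of mm10 chromosome 11, from Myh3 (67078300 to 67102291) through Myh2, Myh1 and Myh4 to Myh8 (67277124 to 67308634), and Myh6 and Myh7 lie side by side on the minus strand of chromosome 14, where Myh7 (54970684 to 54994626) is overlapped by noncoding genes on the other strand, Mhrt among them.

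**Figure D3:**
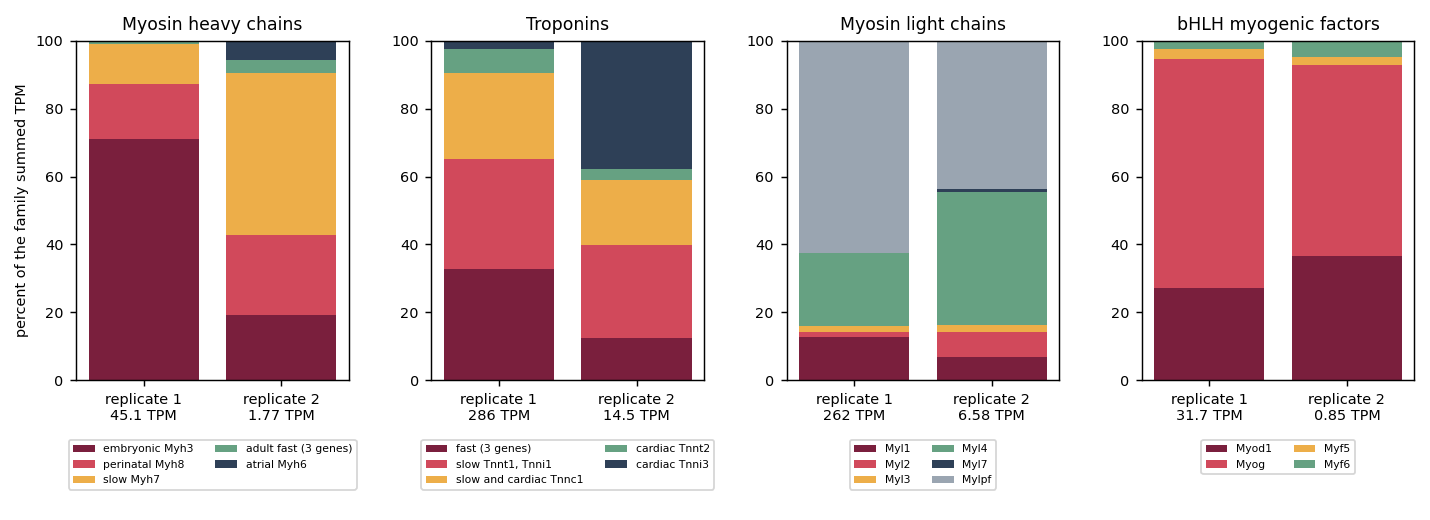
Percent of summed TPM held by each gene or class within 4 families, in replicate 1 (left bar) and replicate 2 (right bar), with the family's summed TPM under each bar. Myh3 fills 71.2% of the first heavy chain bar and 19.2% of the second, and Tnni3 fills 2.34% and 37.8% of the troponin bars.

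Myosin light chains, which bind the lever arm of the heavy chain, were led by the fast skeletal and embryonic forms. Mylpf, the fast skeletal regulatory light chain, had 163 TPM in replicate 1 and 2.87 TPM in replicate 2, a log2 ratio of 5.66 (5.43 to 5.92). Myl4, the embryonic and atrial essential light chain, had 56.4 TPM in replicate 1 and 2.58 TPM in replicate 2, with a log2 ratio of 4.48. Myl1, the fast essential light chain, had 33.7 TPM in replicate 1 and 0.46 TPM in replicate 2, with a log2 ratio of 6.09. Mylpf held the largest share of the family in both replicates, 62.4% in replicate 1 and 43.6% in replicate 2, followed by Myl4 with 21.6% and 39.2%.

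The slow and ventricular pair was lower but also detected. Myl3, the essential form, had 4.73 TPM in replicate 1 and 0.14 TPM in replicate 2. Myl2, the regulatory form, had 3.49 TPM in replicate 1 and 0.47 TPM in replicate 2. Atrial Myl7 had 3 counts in replicate 1 and 2 in replicate 2, at the level of a few reads. Embryonic and atrial Myl4 was therefore not accompanied by its atrial partner Myl7.

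Myl1 is transcribed from 2 starts, giving a long and a short light chain. Myl1-201, the transcript for 188 residues, had 10.1 TPM in replicate 1 and 0.15 TPM in replicate 2, or 30.1% and 32.7% of the gene. Myl1-202, the transcript for 150 residues, had 21.5 TPM in replicate 1 and 0.29 TPM in replicate 2, or 63.7% and 61.8% of the gene. The estimated shares were alike, but with 27 counts for the whole gene in replicate 2 its split rests on few reads.

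Both sarcomeric actins, the core of the thin filament, were among the most abundant members of replicate 1. Actc1, the cardiac form that embryonic skeletal muscle also uses, had 186 TPM in replicate 1 and 3.26 TPM in replicate 2, from 15021 and 353 counts, a log2 ratio of 5.82 (5.67 to 5.98). Acta1, the adult skeletal form, had 119 TPM in replicate 1 and 3.81 TPM in replicate 2, a log2 ratio of 4.95 (4.80 to 5.10). Actc1 made up 61.1% of the pair in replicate 1 and 46.1% in replicate 2, and the intervals of the ratios did not overlap. Actn2, the alpha-actinin of all sarcomeric Z discs, had 20.1 TPM in replicate 1 and 2.41 TPM in replicate 2, with a log2 ratio of 3.08. Actn3, the alpha-actinin of fast fibres, had only 2.38 TPM in replicate 1 and 1.07 TPM in replicate 2, with a log2 ratio of 1.18 (0.93 to 1.45).

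Troponins, the calcium switch of the thin filament, included fast, slow and cardiac forms, and 7 of the 8 were at least 8-fold higher in replicate 1. Of the fast set, Tnnc2 had 50.4 TPM in replicate 1 and 0.46 TPM in replicate 2, a log2 ratio of 6.66 and the second largest of all members. Tnni2 had 24.7 TPM in replicate 1 and 0.50 TPM in replicate 2, with a log2 ratio of 5.47. Tnnt3 had 19.0 TPM in replicate 1 and 0.86 TPM in replicate 2, with a log2 ratio of 4.92. All 3 fast subunits, which bind calcium, inhibit and hold tropomyosin, were thus below 1 TPM in replicate 2.

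Slow Tnnt1 and Tnni1 together were about as abundant as the fast set in replicate 1. Slow Tnni1 had 55.3 TPM in replicate 1 and 0.97 TPM in replicate 2, with a log2 ratio of 6.11. Slow Tnnt1 had 37.7 TPM in replicate 1 and 3.02 TPM in replicate 2, a log2 ratio with an interval of 3.76 to 4.27. Tnnc1, used by slow and cardiac muscle, had 72.6 TPM in replicate 1 and 2.75 TPM in replicate 2, with a log2 ratio of 4.72. Fast subunits made up 32.9% of summed troponin TPM in replicate 1 and 12.5% in replicate 2 (22.7% ± 14.4, SD, n = 2), and slow Tnnt1 with Tnni1 made up 32.4% in replicate 1 and 27.4% in replicate 2.

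The cardiac forms went apart from each other. Cardiac Tnnt2, which embryonic skeletal muscle also expresses, had 20.1 TPM in replicate 1 and 0.49 TPM in replicate 2, with a log2 ratio of 5.42 (4.99 to 5.98). Cardiac Tnni3 had 6.70 TPM in replicate 1 and 5.49 TPM in replicate 2, from 234 and 280 counts, with a log2 ratio of 0.15 (-0.10 to 0.41). Tnni3 therefore held 7.73% of troponin I in replicate 1 and 78.9% in replicate 2. The Tnni3 gene, on the minus strand of mm10 chromosome 7 (4518305 to 4524229), is overlapped on its own strand by Dnaaf3, so reads over shared sequence could belong to either. Its full-length transcript for 211 residues, Tnni3-201, had 3.99 TPM in replicate 1 and 3.31 TPM in replicate 2.

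Troponin T transcripts differed in their make-up. For fast Tnnt3, the 15 annotated transcripts for at least 250 residues summed to 16.1 TPM in replicate 1 and were all listed at 0 in replicate 2. Replicate 2 had its Tnnt3 reads assigned to shorter transcripts, of which Tnnt3-204, for 239 residues, had 0.66 TPM in replicate 1 and 0.28 TPM in replicate 2. With 41 counts for the whole gene in replicate 2, this assignment is an estimate from few reads. For slow Tnnt1, the transcripts for 261 and 262 residues (Tnnt1-201 and Tnnt1-203) had 11.8 and 10.6 TPM in replicate 1 and 0.07 and 0.03 TPM in replicate 2. Coding Tnnt1-206 and Tnnt1-209 differed less, with 3.98 and 6.13 TPM in replicate 1 and 0.87 and 0.61 TPM in replicate 2. The retained-intron transcript Tnnt1-211 had 0.49 TPM in replicate 1 and 0.48 TPM in replicate 2, so it did not follow these coding transcripts. Tnnt1-212, also with a retained intron, was higher in replicate 1, at 1.91 TPM against 0.38 TPM in replicate 2. Tnnt1-211 rests on 18.59 and 24.74 estimated counts, and the whole gene on 139 counts in replicate 2, so this split also rests on few reads. Cardiac Tnnt2-207, for 302 residues, had 13.3 TPM in replicate 1 and 0.20 TPM in replicate 2.

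Tropomyosin, which lies along actin and moves with troponin, has products known from striated muscle, from brain and from other cells, which the transcript and junction tables list separately. Tpm1 had 235 TPM in replicate 1 and 150 TPM in replicate 2, the highest member in both, with a log2 ratio of 0.56 (0.53 to 0.59). Tpm2 had 65.6 TPM in replicate 1 and 13.4 TPM in replicate 2, with a log2 ratio of 2.42 (2.34 to 2.51). Tpm1 has an upstream start that gives long proteins and an internal start that gives short ones, and 4 alternative coding exons near its 3′ end, called end exons. The nearest of these to the body of the gene is known from striated muscle, and the third is known from brain. In Tpm1-205 the nearest is the next-to-last coding exon, not the last.

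Tpm1 transcripts with the upstream start summed to 116 TPM in replicate 1 and 48.3 TPM in replicate 2. Those with the internal start summed to 84.8 TPM in replicate 1 and 76.4 TPM in replicate 2. The difference between the replicates in Tpm1 was therefore mostly in the long products, whose share of coding transcripts was 57.7% in replicate 1 and 38.7% in replicate 2. The striated muscle type Tpm1-205, for 284 residues, had 44.5 TPM in replicate 1 and 11.5 TPM in replicate 2. The brain type Tpm1-209, for 245 residues, had 42.1 TPM in replicate 1 and 35.9 TPM in replicate 2. By end exon, transcripts with the nearest exon summed to 56.6 TPM in replicate 1 and 22.6 TPM in replicate 2, and the sum for transcripts with the third exon was 1.17-fold higher in replicate 1. Transcripts with the fourth, farthest exon, known from smooth muscle and non-muscle cells, held the most, 95.4 TPM in replicate 1 and 58.6 TPM in replicate 2.

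The deposited junction table, made on mm9, gives reads over each splice junction in 2 fields that no label ties to a numbered replicate, so its fields are called field 1 and field 2 and their order is not read as replicate 1 and replicate 2. Scaled by all junction reads, 38 of the 43 members were at least 2-fold higher in field 1 and none was at least 2-fold lower. By the deposited RPKM on mm9, in contrast, 42 members were higher in field 2, and 39 were at least 2-fold higher there. The share of all genes past 2-fold was not counted for either pair of fields. The 5 members within 2-fold between the junction fields were Myh2, Tnni3, Tpm1, Mef2c and Ryr1, each also within 2-fold between the replicates on mm10. Ckm had 969 junction reads in field 1 and 3 in field 2, and Myh3 had 10997 in field 1 and 153 in field 2. Tnni3 had 230 in field 1 and 259 in field 2 over its own annotated junctions, a scaled log2 ratio of 0.27 (0.01 to 0.53).

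Junction reads separated the tropomyosin products without an estimate of transcript levels. Into the nearest Tpm1 end exon, 594 reads in field 1 and 338 in field 2 were spliced, a scaled log2 ratio of 1.26 (1.06 to 1.45). Into the third end exon there were 433 reads in field 1 and 720 in field 2, a scaled log2 ratio of -0.29 (-0.47 to -0.12). The fourth end exon, the most used, took 1190 reads in field 1 and 868 in field 2, a scaled log2 ratio of 0.90 (0.77 to 1.02). The striated muscle type end was thus higher and the brain type end lower in field 1, and the fourth end, not particular to striated muscle, was also higher in field 1. From the upstream start, 774 reads in field 1 and 448 in field 2 led into the next exon that both share, and from the internal start 740 and 918 did, with scaled log2 ratios of 1.23 and 0.13.

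Tpm2 showed the same kind of split in its junctions. Into the nearer of its end exons there were 641 reads in field 1 and 67 in field 2, a scaled log2 ratio of 3.70 (3.34 to 4.09). Into the farther end exon there were 77 reads in field 1 and 64 in field 2, a scaled log2 ratio of 0.71 (0.21 to 1.21). The nearer exon so took 89.3% of these reads in field 1 and 51.1% in field 2. The choice of the sixth exon was alike, with 85.1% of reads in field 1 and 47.9% in field 2 going to the exon nearer the 3′ end. The deposited transcript table gave another balance, with Tpm2-202, which has both of these exons, at 41.4% of the gene in replicate 1 and 28.5% in replicate 2, and Tpm2-203, which has the other pair, at 54.0% and 67.3%. The junction counts of field 1 thus put the nearer exons ahead, while the transcript estimates put Tpm2-203 ahead in both replicates; the junctions of field 2 were close to even.

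Of the giant and thick filament proteins, all 5 were at least 2-fold higher in replicate 1, with log2 ratios between 1.17 and 6.01. Ttn, the molecular spring of the sarcomere, had 6430 counts in replicate 1 and 227 in replicate 2, or 3.32 TPM in replicate 1 and 0.09 TPM in replicate 2. Neb, the nebulin of skeletal thin filaments, had 9.33 TPM in replicate 1 and 3.77 TPM in replicate 2, with a log2 ratio of 1.17 (1.08 to 1.28). Slow myosin binding protein Mybpc1 had 18.1 TPM in replicate 1 and 3.52 TPM in replicate 2. Mybph, a related thick filament protein, had 12.4 TPM in replicate 1 and 0.17 TPM in replicate 2, with a log2 ratio of 6.01. Fast Mybpc2 had 8 counts in replicate 1 and 4 in replicate 2, so the slow form was the measured one.

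Along Neb and Myh7, the difference between the junction fields was not equal at every position. Genes were divided into 5 successive stretches of near-equal junction number from the 5′ end. Ttn had 271, 335, 180, 231 and 762 reads in field 1 and 4, 19, 5, 12 and 32 in field 2, and the counting intervals of its 5 ratios all overlapped. For Neb, the 5 stretches were 7.24-fold, 1.74-fold, 1.36-fold, 2.05-fold and 2.70-fold higher in field 1, so the 5′ stretch stood apart from the middle. The last of the 5 stretches of Myh7 was 3.36-fold higher in field 1, with 791 reads in field 1 and 320 in field 2, while the earlier stretches were between 9.14-fold and 38.1-fold higher. Thus 81.0% of Myh7 junction reads in field 2 lay in the last stretch, against 46.1% in field 1.

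**Figure D4:**
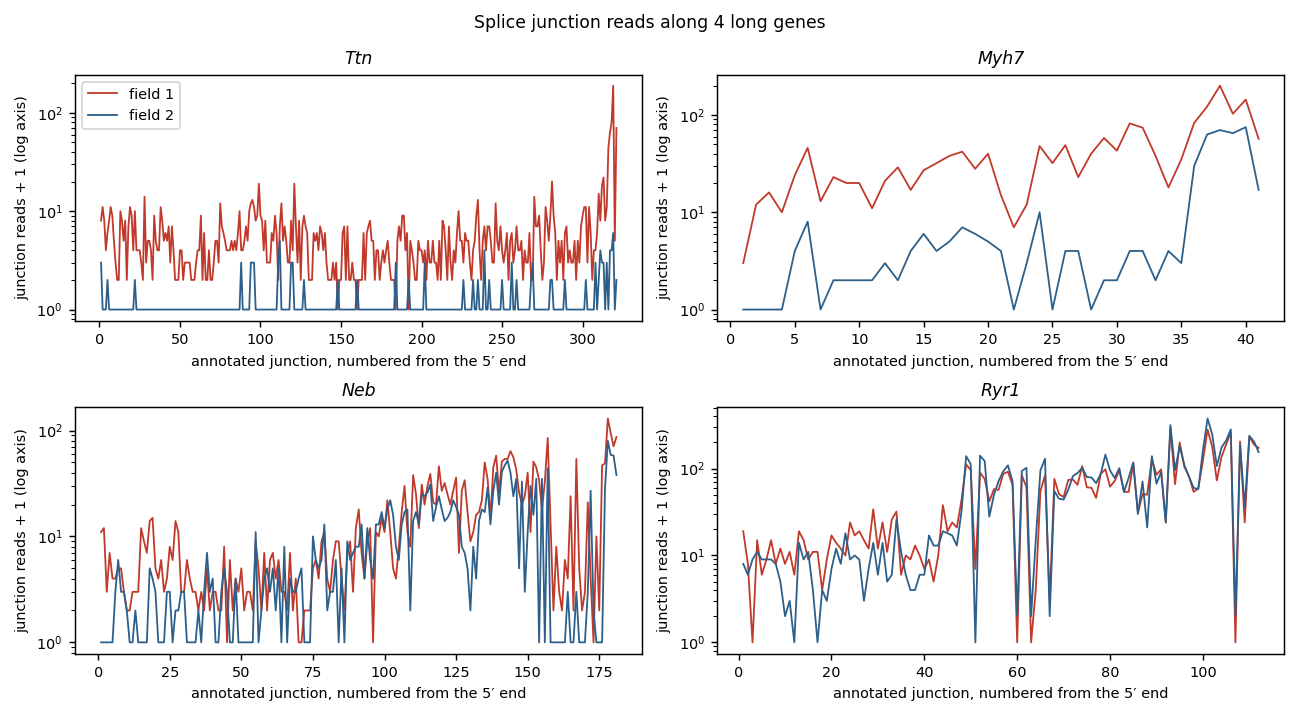
Reads plus 1 (log axis) over each annotated splice junction of Ttn, Myh7, Neb and Ryr1, numbered from the 5′ end, in the 2 fields of the deposited mm9 junction table. The field 1 line lies above the field 2 line over most of Ttn, meeting or crossing it at a few junctions with few reads; the lines approach each other over the 3′ end of Myh7 (320 field 2 reads in the last of 5 stretches), and nearly coincide in the middle of Neb and over the 3′ part of Ryr1.

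Ckm, the muscle creatine kinase that buffers ATP, had the largest ratio of all members. It had 1266 counts in replicate 1 and 6 in replicate 2, or 16.4 TPM in replicate 1 and 0.06 TPM in replicate 2, a log2 ratio of 7.88 (7.01 to 9.58). Des, the intermediate filament protein of all muscle types, had 8.40 TPM in replicate 1 and 0.79 TPM in replicate 2, with a log2 ratio of 3.48. Ckm was thus represented by 6 reads in replicate 2, while Des, with 168, differed less.

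Of the bHLH myogenic factors, Myog and Myod1 passed 1 TPM in replicate 1 and none of the 4 passed in replicate 2. Myog, which drives terminal differentiation, had 21.3 TPM in replicate 1 and 0.48 TPM in replicate 2, from 1751 and 53 counts, a log2 ratio of 5.43 (5.07 to 5.88). Myod1, the determination factor, had 8.63 TPM in replicate 1 and 0.31 TPM in replicate 2, a log2 ratio of 4.74 (4.34 to 5.25). Early Myf5 had 117 counts in replicate 1 and 3 in replicate 2, and late Myf6 had 50 counts in replicate 1 and 4 in replicate 2. The order Myog, Myod1, then both Myf genes held in each replicate, and Myog made up 67.3% of the summed TPM in replicate 1 and 56.5% in replicate 2. Summed over the 4 factors, 2823 counts in replicate 1 and 104 in replicate 2 gave a log2 ratio of 5.16 (4.89 to 5.47).

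Mef2c, a partner of these factors in muscle that is also a neuronal transcription factor, had 12.6 TPM in replicate 1 and 12.4 TPM in replicate 2. Its log2 ratio of 0.05 (-0.00 to 0.11) was the smallest of all members. Its main transcript Mef2c-202, for 484 residues, held 72.3% of the gene in replicate 1 and 73.8% in replicate 2, at 9.12 and 9.11 TPM. Mef2c thus did not follow the bHLH factors in level, and its main transcript was nearly the same in both replicates. Mef2c-201 had 1.98 TPM in replicate 1 and 1.33 TPM in replicate 2, while Mef2c-203 had 1.51 and 1.91 TPM.

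Acetylcholine receptor subunits of the muscle side of the synapse followed the sarcomere genes. Chrng, the fetal gamma subunit, had 6.22 TPM in replicate 1 and 0.12 TPM in replicate 2, with a log2 ratio of 5.74 (5.13 to 6.66). Chrna1, the muscle alpha subunit, had 1.14 TPM in replicate 1 and 0.05 TPM in replicate 2, with a log2 ratio of 4.32. Casq2, a calcium-binding protein of the sarcoplasmic reticulum, had 13.6 TPM in replicate 1 and 0.24 TPM in replicate 2, with a log2 ratio of 5.79. All 3 were more than 8-fold higher in replicate 1.

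Ryr1, the calcium release channel of skeletal muscle that is also found in neurons, did not. It had 5.79 TPM in replicate 1 and 4.61 TPM in replicate 2, from 5561 and 5887 counts, with a log2 ratio of 0.33 (0.28 to 0.39). The first and second of its 5 stretches of junctions had 217 and 331 reads in field 1 and 131 and 204 in field 2, or 2.25-fold and 2.20-fold higher in field 1. From the third stretch on, field 1 was between 1.09-fold and 1.23-fold higher, and the third stretch alone held 1159 reads in field 1 and 1439 in field 2. Ryr1 reads were thus several times denser in the 3′ part of the gene, and the fields differed mainly in the sparser 5′ part.

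Other genes of muscle, taken from lists of 71 genes that are not members, differed in the same direction: 50 were at least 2-fold higher in replicate 1, none was 2-fold lower and 21 were within 2-fold. Of all genes with a mean count of at least 10, 7.22% were at least 2-fold higher. The 71 genes were not filtered by count, and 1 Z disc, M band or filament end gene had no count in either replicate. Of 24 Z disc, M band and filament end genes, 22 were at least 2-fold higher, with a median log2 ratio of 3.13; Flnc, an actin crosslinker, had 8.66 TPM in replicate 1 and 3.47 TPM in replicate 2, and Unc45b, a myosin chaperone, had 4.98 and 0.95 TPM. Of 15 excitation-contraction coupling genes, 9 were, and the most abundant, Cacnb1, a calcium channel beta subunit, and Srl, sarcalumenin, were within 2-fold. Of 8 synaptic genes 5 were; Chrnb1, a receptor beta subunit, had 10.2 TPM in replicate 1 and 2.46 TPM in replicate 2, and Lrp4, the agrin receptor, had 7.56 and 9.31 TPM. Of 12 progenitor and fusion genes 6 were, and the most abundant, the light chain Myl6b, had 30.2 TPM in replicate 1 and 24.5 TPM in replicate 2. Of 12 energy metabolism genes 8 were, but its most abundant members Fabp3, a fatty acid binding protein, and Eno3, the muscle enolase, were within 2-fold.

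Many markers of other tissues were also higher in replicate 1. Of 12 cartilage and bone genes, 8 were at least 2-fold higher in replicate 1, and the list summed to 907 TPM in replicate 1 and 173 TPM in replicate 2. Col2a1 had 417 and 73.5 TPM and Matn1, a cartilage matrix protein, had 177 and 7.34 TPM. The 4 within 2-fold, named after their values were seen, were Sox9 and the bone genes Sp7, Ibsp and Alpl. All 10 skin and epithelial genes were at least 2-fold higher, with a sum of 144 TPM in replicate 1 and 22.3 TPM in replicate 2. Keratins Krt5 and Krt14 had 48.0 and 34.8 TPM in replicate 1 and 4.61 and 3.82 TPM in replicate 2. Of 10 meningeal and fibroblast genes 7 were, with a sum of 1313 TPM in replicate 1 and 544 TPM in replicate 2, led by the collagen genes Col1a2 and Col3a1. Of 10 peripheral ganglion and Schwann cell genes 6 were, with a sum of 224 TPM in replicate 1 and 121 TPM in replicate 2; Prph, peripherin, had 93.1 and 29.4 TPM, and Isl1 was within 2-fold. Of 8 smooth muscle genes 3 were, led by Acta2 with 62.4 TPM in replicate 1 and 19.5 TPM in replicate 2, and Smtn, smoothelin, was within 2-fold. The part of these tissues in the members' ratios was not tested.

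Heart markers were low, and most were higher in replicate 1. The 12 genes of the list summed to 23.2 TPM in replicate 1 and 3.13 TPM in replicate 2. At least 2-fold higher in replicate 1 were 11 of them, some at few counts, against 7.22% of genes with a mean count of at least 10. Most of the summed TPM came from Sln, sarcolipin, with 16.4 TPM in replicate 1 and 1.23 TPM in replicate 2, and Myh7b, a myosin gene, with 3.25 and 0.48 TPM. The transcription factors of the list, named after their values were seen, ranged widely: Nkx2-5 had 4 counts in replicate 1 and 1 in replicate 2, Gata4 had 6 and 2, and Tbx5 had 15 and 9, while Hand2 had 146 and 10 and Tbx20 had 287 and 142. None of these 5 passed 1 TPM in replicate 2, and Hand2 alone did in replicate 1, with 1.13 TPM. The intervals of Nkx2-5, Gata4 and Tbx5 included no difference. Atrial Nppa had 23 counts in replicate 1 and 54 in replicate 2. The part of heart tissue in the values of Actc1, Tnnt2, Tnnc1 and Myl4, which heart and embryonic skeletal muscle share, was not tested.

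**Figure D5:**
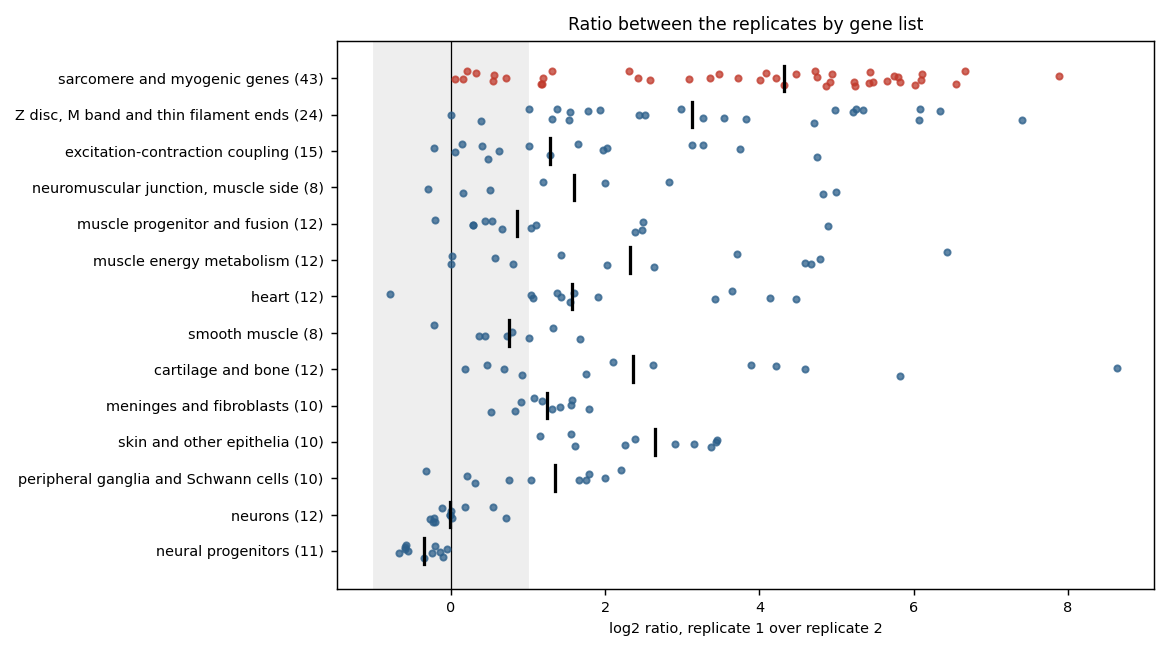
Log2 ratio, replicate 1 over replicate 2, of each gene (points) and the median (black bars) for the 43 members and the 13 other lists, with the number of genes in brackets; the grey band marks under 2-fold. The members' median of 4.32 is to the right of every list's, and all 12 neuronal and 11 progenitor genes lie within the band.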

How the data were processed

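Poly(A)+ RNA-seq of 2 biological replicates of 1 group was analysed. Per the text deposited with them, the gene and transcript tables were made on mm10 with GENCODE M4; neither aligner nor quantifier is named in the sources used here. The deposited expected counts are unnormalized estimates, the deposited TPM and FPKM are scaled by effective length and depth, and the deposited percent values give each transcript's part of its gene. The deposited mm9 tables hold RPKM and junction counts in 2 fields. Symbols and positions came from GENCODE M21. Rows naming neither a gene nor an ERCC spike-in held 0.666% and 0.308% of counts and were left out.

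Expected counts were rounded and scaled by TMM with edgeR 4.0.16 in R 4.3.3 (prior count 1); DESeq2 1.42.0 gave other size factors. Intervals are exact 95% binomial (Clopper-Pearson); they and the floor of 3 counts cover counting error only, reads not being independent molecules. The ratio was tested on simulated data. Fold sizes were counted as thresholds, with no test. All 43 members are named; of every other list, the 2 genes with the highest mean TPM are, with any gene past 2-fold against its list's direction. A gene that this rule names is not reported here. Transcripts of 7 genes at 10% or more were considered; those of Tnni3, the junctions of Tpm1 and Tpm2 and the position along Ttn, Neb, Ryr1 and Myh7, were chosen after their values were seen. Members and lists were chosen with earlier results of these data known. Alternatives were other scalings, priors, pseudocounts, filters and thresholds, CPM, mm9 RPKM and each replicate alone. Python 3.11.15 with pandas 2.3.3 and scipy 1.17.1 was used.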

Additional observations from a re-analysis of the deposited data

How the results depend on the processing

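Of 39 alternative values that keep both replicates, 37 stayed within the error or the 1.5-fold range of the value reported. None of the log2 ratios changed direction, and counts and shares were not judged for direction. For the members' median, the error was the counting interval of the median member, Chrna1 (3.74 to 5.16). For the shares it was the SD over 2 unlike replicates, a range so wide that few values could leave it. With a pseudocount of 1 on the deposited TPM, the members' median log2 ratio was 2.39 in place of 4.32 and that of the summed bHLH factors 4.14 in place of 5.16; that pseudocount is larger than the TPM of 28 members in replicate 2. The count of members at least 2-fold higher was 36 under each scaling (TMM, DESeq2 size factors, total counts, ERCC spike-ins) and lowest, 28, with a mean count of at least 200. That filter also left fewer members to count, and their median log2 ratio was 4.83. With replicate 2 or replicate 1 left out, the embryonic share of myosin heavy chain was 71.2% or 19.2% and the fast share of troponin 32.9% or 12.5%, so both means rest on unlike replicates; the isoforms at 10% or more of their gene numbered between 20 and 22, against 24 by the mean. Alternatives for the other muscle lists (46 to 50 genes) and for members with whole counts (31 of 36 genes, median 4.73) were chosen after seeing the data. No paired analysis was possible because the samples form 1 group. Depth limits Myh4, Myl7, Mybpc2 and the adult myosins most.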

Other observations

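Tnnc1 stood apart in the deposited mm9 gene table, which lists it at 0.0102 RPKM in field 1 and 0.0518 RPKM in field 2, while its annotated junctions held 3334 reads in field 1 and 146 in field 2 of the junction table. Fast Tnnc2 was listed at 0.0223 RPKM in field 1 and 3.48 RPKM in field 2. The level of Tnnc1 in that gene table therefore does not follow its junction reads, and the mm9 troponin share, 27.3% fast against 22.7% on mm10, leaves nearly all of Tnnc1 out.

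Mef2c was the only member with a higher RPKM in field 1 than in field 2 of that table, at 1.64 RPKM in field 1 and 1.61 RPKM in field 2.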
